A study of Mus musculus with 20 samples.

Results

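The complement system is a cascade of blood proteins that marks microbes and dying cells for removal. C1q, built from chains encoded by C1qa, C1qb and C1qc, starts the classical branch when it binds antibody or cell debris, and Serping1 encodes the C1 inhibitor that shuts off the proteases bound to it. Cleavage of C3 and C5 releases small fragments that call in and activate white blood cells through the receptors C3ar1 and C5ar1. Most circulating complement comes from the liver, whereas C1q is known as a product of macrophages and dendritic cells, and fibroblasts and endothelium are known sources of C1 inhibitor.

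The complement genes considered here were picked out by their symbols in the array's probe-to-gene table, a rule that reads no signal value, from a gene list drawn up with earlier results of these data known. Of 7 genes listed (C1qa, C1qb, C3, C4b, Serping1, C3ar1 and C5ar1), 5 had a probe set carrying that symbol alone, out of 8251 genes named in this way. These 5 genes were read by 6 probe sets, C1qb by a pair of them, and all 6 passed the filter on low values described below. C4b appeared only on 2 probe sets that also carry the symbol of its near-identical neighbour C4a, so their values are given as C4a/C4b and are not counted. No probe set carried the symbol C3 in the table, and C3 was not analysed here.

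The samples were sorted cells of adult mice of the inbred strain C57BL/10SnJ, and the labels state no treatment, transgene or exact age. Side population (SP) cells, which pump out a DNA dye and are known in marrow to include blood stem cells, and main population (MP) cells, which retain it, were taken from muscle and from marrow. Total RNA was measured on 20 expression arrays, 5 for each pairing of tissue (skeletal muscle or bone marrow) with population (SP or MP). Since the labels leave unsaid whether replicates are different animals, pooled animals or different sorts, the p-values cover the spread among these arrays alone, and that spread may be technical.

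Values below are log2 signal after quantile normalization of the arrays. Signals under 105, the 25th percentile of all values (log2 6.71), were set to that floor, so 6.71 means "at or under the floor" and a fold against such a value is understated. A probe set was tested if it exceeded the floor on at least 5 of the 20 arrays, which left 10310, and a difference was called at an adjusted p under 0.05 (limma over all 10310 probe sets, Benjamini-Hochberg). A level is comparable between groups for 1 probe set, never between probe sets. In such bulk samples, fewer cells of a type and less RNA per cell cannot be told apart. The log2 ratio of the GAPDH 3' to 5' control probe sets, which rises in degraded or 3'-biased RNA, was 3.83 ± 0.61 on muscle SP, 2.66 ± 0.62 on muscle MP, 3.72 ± 0.60 on bone marrow SP and 2.67 ± 0.72 on bone marrow MP arrays (SD, n = 5), so the SP arrays stood higher in both tissues.

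RefSeq's promoter table for the mouse assembly GRCm38.p6 held 3 of the 7 listed genes with a measured probe set, C1qb, C3ar1 and C5ar1. The windows run from 250 bases before the annotated start to 50 bases after it, on the minus strand in all 3, and are shown because C3ar1, and C1qb on 1 of its 2 probe sets, were called lower in muscle SP than in muscle MP cells whereas C5ar1 showed no such call. C1qb lies at chr4:136886151-136886450, C3ar1 at chr6:122856108-122856407 and C5ar1 at chr7:16259289-16259588. Capitals mark GAGGAA or its reverse complement TTCCTC, the core letters bound by PU.1, a transcription factor of macrophages and other myeloid cells.
C1qb: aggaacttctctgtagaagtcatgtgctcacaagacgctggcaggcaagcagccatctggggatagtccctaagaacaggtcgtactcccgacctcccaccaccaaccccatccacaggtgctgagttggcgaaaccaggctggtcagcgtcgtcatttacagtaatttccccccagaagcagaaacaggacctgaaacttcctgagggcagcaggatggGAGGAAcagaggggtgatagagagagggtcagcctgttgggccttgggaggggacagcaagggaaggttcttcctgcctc
C3ar1: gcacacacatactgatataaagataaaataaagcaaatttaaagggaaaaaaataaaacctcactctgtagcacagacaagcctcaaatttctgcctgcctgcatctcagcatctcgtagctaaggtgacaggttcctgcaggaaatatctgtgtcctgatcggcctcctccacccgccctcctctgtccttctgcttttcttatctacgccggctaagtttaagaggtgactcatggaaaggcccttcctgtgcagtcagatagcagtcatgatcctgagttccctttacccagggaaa
C5ar1: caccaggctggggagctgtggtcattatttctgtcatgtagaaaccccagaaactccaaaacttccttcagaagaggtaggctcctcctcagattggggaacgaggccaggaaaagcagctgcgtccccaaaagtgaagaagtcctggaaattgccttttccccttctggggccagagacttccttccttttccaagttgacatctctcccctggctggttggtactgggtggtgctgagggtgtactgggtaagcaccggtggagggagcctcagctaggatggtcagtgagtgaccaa

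The C1qb window held the motif 1 time, 30 bases before the annotated start, and the C3ar1 and C5ar1 windows held it 0 times on either strand. Of 32851 windows of 300 bases in the table, 28.3% held it, so a match of this length is common.

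C1qa and C1qb, the latter on 1 of its 2 probe sets, were bright in muscle MP cells and at or near the signal floor on most other arrays. C1qa measured 9.25, 9.52, 9.63, 9.84 and 9.58 on the muscle MP arrays 1 to 5. It measured 6.81, 6.75, 8.27, 6.71 and 6.71 on muscle SP arrays, where array 3 alone stood clear of the floor. On bone marrow SP arrays 4 of 5 values were at the floor and array 3 read 7.75, and on bone marrow MP arrays 4 of 5 were at the floor and array 5 read 7.39. No array of the other 3 groups reached the lowest muscle MP value.

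C1qb showed the same order on the probe set 96020_at. Its muscle MP values were 10.09, 9.99, 10.42, 10.81 and 9.55. On muscle SP arrays it read 7.61 on array 3 and was at the floor on the other 4, and all 10 bone marrow arrays were at the floor. In the deposited signal units before normalization the muscle MP arrays lay between 749.8 and 1903.8, against 15.4 to 193 on muscle SP, 14.3 to 49.0 on bone marrow SP and 6.6 to 35.4 on bone marrow MP arrays.

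**Figure D1:**
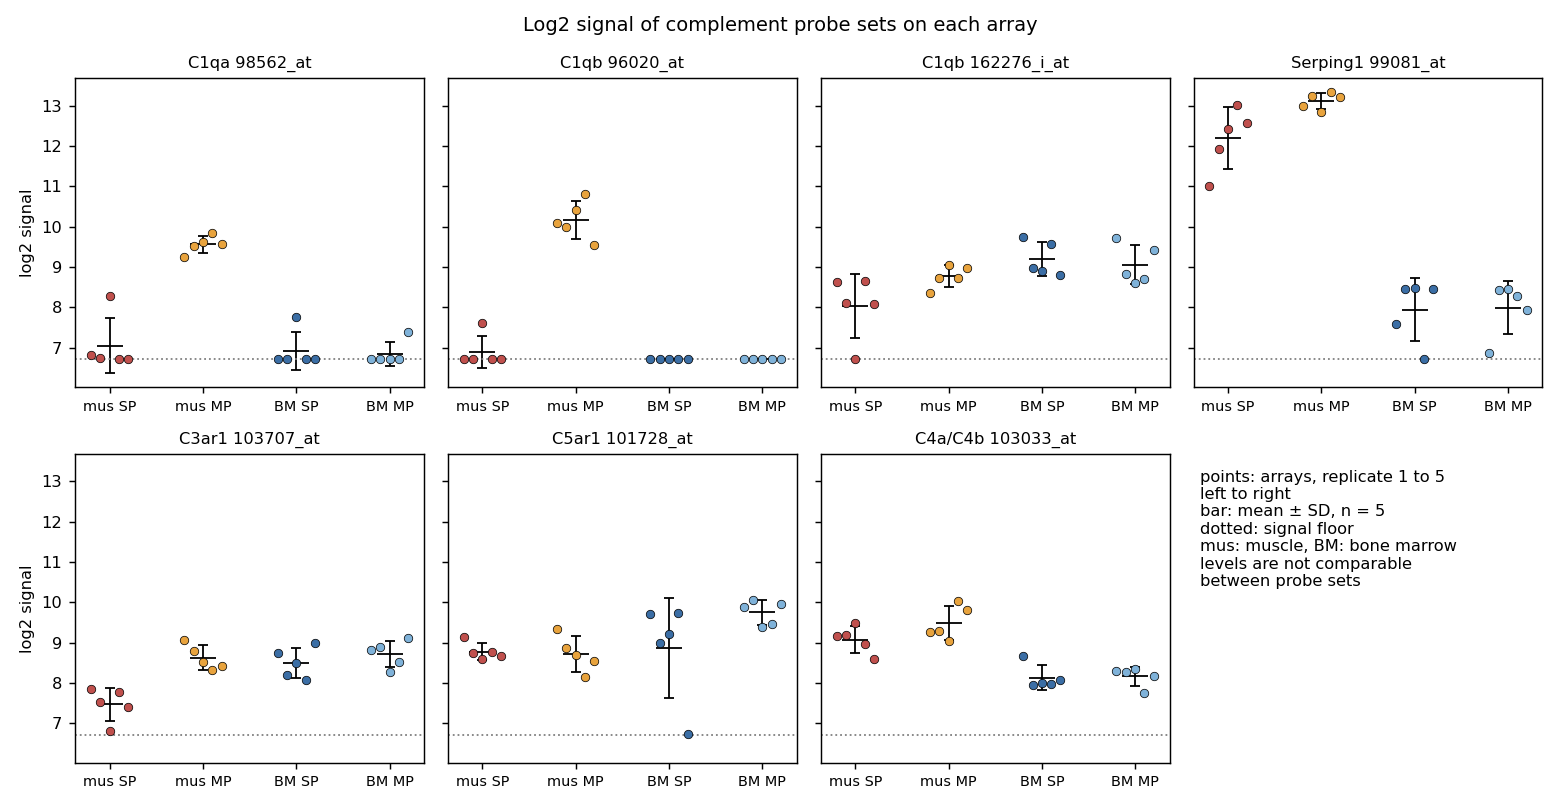
Log2 signal (vertical axis) of each complement probe set on the 20 arrays, by group, with mean ± SD of 5 arrays and the signal floor of 6.71 as a dotted line. C1qa and C1qb 96020_at stand between 9.25 and 10.81 on muscle MP arrays and at or near the floor elsewhere, and Serping1 stands at 11.00 or higher on all muscle arrays.

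The first comparison asked how side population cells of muscle differ from the sorted main population cells of that tissue. Of the 6 complement probe sets, 3 were called lower in muscle SP and 0 higher, against 11.7% of all probe sets called, 6.64% lower and 5.1% higher. The groups did not overlap for these 3, as for 10.1% of all probe sets. The median log2 difference was -1.04 for the 6, against 0.03 for all probe sets. C1qb 96020_at exceeded the floor on only 6 arrays, 5 of them muscle MP, so its passing of the filter was tied to the group in which it is high, and the count says nothing beyond these probe sets.

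C1qb 96020_at was 9.72-fold lower in muscle SP (log2 -3.28 ± 0.21, standard error, adjusted p = 4.8e-10 by limma), with means of 6.89 ± 0.40 against 10.17 ± 0.47 (SD, n = 5). The size of this difference rested on the floor, the log2 value being -4.67 with the floor at the 10th percentile and -2.18 with the floor at the 40th. So did its standard error and p-value, here and in the other comparisons of this probe set. They pool the spread of all 4 groups, and both marrow groups had an SD of 0 with every value at the floor. Over the 23 alternatives to this comparison the adjusted p ran from 7.1e-11 to 2.1e-04 (limma). C1qa was 5.71-fold lower (log2 -2.51 ± 0.27, adjusted p = 1.6e-06 by limma), with means of 7.05 ± 0.68 against 9.56 ± 0.21. With the floor at the 40th percentile its log2 difference was -1.51. Without muscle SP array 3 the log2 differences were -3.46 for C1qb and -2.82 for C1qa, and with the GAPDH ratio as a covariate they were -3.25 and -2.62.

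The genes of the C1q chains neighbour each other in the RefSeq annotation in the order C1qb, C1qc, C1qa. The C1qc probe set, which is not among the listed members, read 8.26 to 8.57 on muscle SP and 10.11 to 10.47 on muscle MP arrays, with no overlap. It was 3.54-fold lower in muscle SP (log2 -1.82 ± 0.20, adjusted p = 1.5e-06 by limma). Unlike C1qa and the first C1qb probe set it stayed above the floor in marrow, at 8.20 to 8.89 on bone marrow SP and 8.61 to 9.61 on bone marrow MP arrays.

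The second C1qb probe set, 162276_i_at, did not follow the first. Its suffix marks a probe set that fell short of the array's usual number of unique probes. It read 8.63, 8.10, 6.71, 8.65 and 8.09 on muscle SP arrays and 8.36, 8.73, 9.06, 8.72 and 8.98 on muscle MP arrays, with overlap, and was not called (log2 -0.73 ± 0.31, 95% interval -1.38 to -0.09, adjusted p = 0.137 by limma). On bone marrow arrays it read 8.81 to 9.74 in SP and 8.61 to 9.73 in MP cells, where 96020_at was at the floor throughout. It was called higher in marrow between the side populations only. Between the main populations the ranges overlapped and it was not called (muscle minus marrow log2 -0.29 ± 0.31, adjusted p = 0.474 by limma). Muscle SP array 3, the only one above the floor on 96020_at, was the only one at the floor on 162276_i_at.

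Macrophage markers were divided between the muscle populations. Of 21 markers listed 18 were on the array and 16 passed the filter. Of these 16, 8 were lower and 0 higher in muscle SP than in muscle MP, against 6.64% and 5.1% of all probe sets. The 8 that were not called included Tyrobp (log2 -0.03), Lgmn (0.23), Cx3cr1 (0.24) and Ccr2 (0.33). The signal summed over the 18 ranged from 6730 to 18809 on muscle SP and from 27338 to 35473 on muscle MP arrays. Adgre1, which encodes a surface antigen that defines mouse macrophages, was at the floor on all muscle SP arrays, and Mrc1, the mannose receptor of tissue-resident macrophages, fell by 2.96 ± 0.20 on the log2 scale (adjusted p = 1.4e-09 by limma). The part of macrophage content in the C1q difference was not tested.

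On muscle SP array 3, where C1qa and C1qb 96020_at were measurable, Adgre1 and Mrc1 were at the floor and Tyrobp, an adaptor of myeloid and NK cell receptors, was at 11.55, the highest of the 5 arrays. Array 2 had the highest summed macrophage signal of the group, 18809 against 15709.5 on array 3, with C1qa at 6.75 and C1qb at the floor.

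In bone marrow MP cells the same 18 markers summed to 161620 to 175681, above every muscle array, while C1qb 96020_at was at the floor on all 5 arrays and C1qa on 4. Adgre1 read 9.09 to 10.00 there, Lyz2, the lysozyme of macrophages and neutrophils, 15.06 to 15.58, and Mrc1 6.71 to 7.53. The sum adds linear signal across probe sets and is carried by the brightest, such as Lyz2, so it does not measure macrophage content. Of 16 markers past the filter, 10 were lower and 2 higher in muscle MP than in bone marrow MP, against 25.6% and 20.9% of all probe sets. The log2 difference was -0.73 for Adgre1, -0.86 for Csf1r and 2.78 for Mrc1. Among the markers drawn in the plot of C1q chains and macrophage markers, Mrc1 had the C1q order, high on muscle MP arrays and at or near the floor elsewhere.

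**Figure D2:**
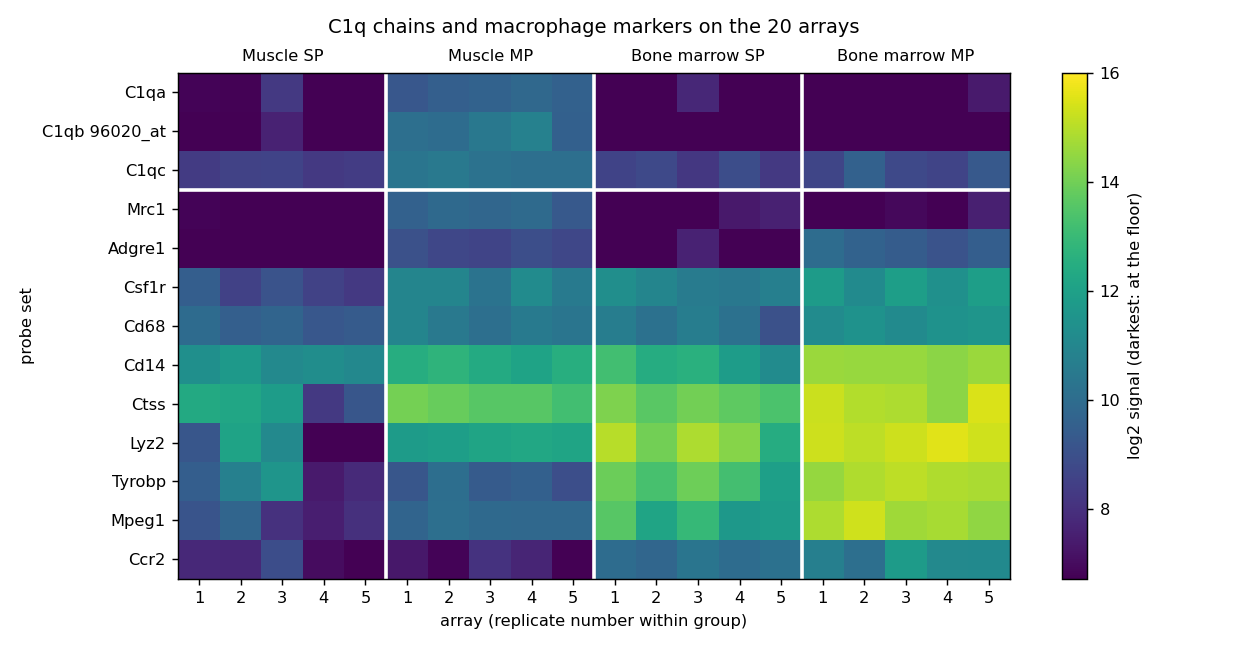
Log2 signal (colour, from the floor at 6.71 upwards) of the C1q chains and of 10 of the 18 macrophage and myeloid markers (rows) on the 20 arrays (columns, replicate 1 to 5 within each group). The 10 were chosen: the 8 called lower in muscle SP than in muscle MP, and Tyrobp and Ccr2. Left out were Fcgr1, Lgmn, Fcgr3, Msr1, Cx3cr1 and Itgam, none of them called in that comparison, and Marco and Aif1, at the floor on all arrays. C1qa, C1qb 96020_at and Mrc1 are bright on the muscle MP arrays, whereas Lyz2, Tyrobp and Mpeg1 are brightest on bone marrow MP arrays.

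Likeness to each member was measured as the root mean square difference of log2 signal over the 20 arrays, after centring each probe set on its own mean, among 9093 or 9094 single-symbol probe sets of other genes. Nearest to C1qb 96020_at were Ms4a4d (0.30), a membrane protein gene, Calcr (0.34), the calcitonin receptor, and Fgfr4 (0.37), a growth factor receptor, the last pair known from muscle satellite cells. All 3 were at the floor on all 10 bone marrow arrays and averaged 9.90 ± 0.29, 10.63 ± 0.24 and 10.53 ± 0.26 on muscle MP arrays. Nearest to C1qa were Ccl11 (0.45), the eosinophil chemokine eotaxin, Ankrd1 (0.45), a muscle ankyrin repeat protein, and Ms4a4d (0.45). The spread of the member itself over the 20 arrays was 1.54 for C1qb and 1.24 for C1qa.

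Markers of other cell types also differed between the muscle populations, where 6.64% of all probe sets were called lower and 5.1% higher in muscle SP. Of 7 satellite cell markers past the filter, 5 were lower in muscle SP and 0 higher, and their summed signal was 1968 to 2427 against 6408 to 9750 on muscle MP arrays. Of 14 fibroblast and matrix markers, 10 were lower and 0 higher, with sums of 102841 to 159644 against 242605 to 358975. Of 9 endothelial markers, 4 were higher and 0 lower, with sums of 135041 to 172708 against 88696 to 101483. Of 8 T and NK cell markers, 5 were higher and 0 lower, with sums of 3453 to 51872, the highest on muscle SP array 3, against 575 to 937. Of 14 granulocyte markers 0 were called, and their sums of 2400 to 48994 on muscle SP arrays were highest on array 2. Their part in the complement differences was not tested.

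Serping1, the gene of C1 inhibitor, was a bright gene of both muscle populations and a dim one in marrow. It read 11.00, 11.93, 12.42, 13.02 and 12.58 on muscle SP arrays and 13.00, 13.23, 12.84, 13.33 and 13.21 on muscle MP arrays. One muscle SP array, number 4, lay inside the muscle MP range and the other 4 lay under it. On bone marrow arrays it read 6.71 to 8.47 in SP and 6.87 to 8.46 in MP cells, under every muscle array.

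Between muscle SP and muscle MP, Serping1 was not called (log2 -0.93 ± 0.37, 95% interval -1.71 to -0.16, adjusted p = 0.112 by limma). Serping1 was called under 2 other treatments of dim values. These were a floor at the 40th percentile (adjusted p = 0.0163 by limma) and a pseudocount in place of the floor (adjusted p = 0.0426 by limma). All muscle values, at 11.00 or higher, lay far above the floor. The standard error pools all 4 groups, and the dim marrow groups had an SD of 0.78 in SP and 0.66 in MP cells. Without muscle SP array 1, which had the lowest Serping1 value and the highest GAPDH ratio (4.79), the log2 difference was -0.64, and with the GAPDH ratio as a covariate it was -0.48, both not called.

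The receptor gene C3ar1, which encodes the C3a receptor of myeloid cells, was lowest in muscle SP cells. It read 7.86, 7.53, 6.82, 7.77 and 7.40 on muscle SP arrays and 9.07, 8.80, 8.52, 8.33 and 8.43 on muscle MP arrays, with no overlap. It was 2.22-fold lower in muscle SP (log2 -1.15 ± 0.23, adjusted p = 0.0015 by limma). With the floor at the 40th percentile the log2 difference was -0.63 and the call held.

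C5ar1, which encodes the C5a receptor of neutrophils and macrophages, showed no call between the muscle populations. It read 9.13, 8.75, 8.59, 8.77 and 8.66 on muscle SP arrays and 9.34, 8.87, 8.70, 8.14 and 8.55 on muscle MP arrays, and the SP values lay inside the MP range. The log2 difference was 0.06 ± 0.39, with a 95% interval of -0.75 to 0.87, which leaves room for a change in either direction. That standard error pools the spread of all 4 groups, here and in the other comparisons of C5ar1. The SD was 1.24 on bone marrow SP arrays, outside this comparison, against 0.21 on muscle SP and 0.44 on muscle MP arrays.

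The C4a/C4b probe set 103033_at, which cannot tell the C4 component of the classical pathway from its neighbour, read 8.60 to 9.48 on muscle SP and 9.03 to 10.04 on muscle MP arrays, with overlap and no call (log2 -0.41 ± 0.21, adjusted p = 0.252 by limma). The other C4a/C4b probe set, 162390_r_at, was at the floor on all 20 arrays and was not tested.

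In bone marrow, the second comparison, 0 of the 6 complement probe sets were called by limma, against 30.2% of all probe sets called in either direction, 15.4% higher and 14.8% lower. The groups did not overlap for 20.1% of all probe sets, and for 0 of the 6. Only 1 of the 6 had an unadjusted p under 0.05. That 1 was C5ar1, at 9.71, 8.98, 9.21, 9.74 and 6.73 on SP arrays and 9.89, 10.06, 9.39, 9.47 and 9.95 on MP arrays. SP array 5 stood far under the others, and SP arrays 1 and 4 lay inside the MP range. The log2 difference was -0.88 ± 0.39 (adjusted p = 0.0972 by limma). It was -0.34 without SP array 5, not called, and was called without SP array 1 (-1.10, adjusted p = 0.0429 by limma) or SP array 4 (-1.10, adjusted p = 0.0446 by limma) and with median scaling (-0.97, adjusted p = 0.0499 by limma).

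C3ar1 read 8.74, 8.20, 8.49, 8.07 and 8.98 on bone marrow SP arrays and 8.81, 8.88, 8.28, 8.51 and 9.11 on MP arrays, and the ranges overlapped. Its log2 difference was -0.22, with a 95% interval of -0.69 to 0.25. For Serping1 the difference was -0.06 (interval -0.83 to 0.71), and for C1qb 162276_i_at it was 0.14 (interval -0.51 to 0.78). With C1qb 96020_at at the floor on all 10 arrays, its SP against MP difference was not measured in marrow.

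**Figure D3:**
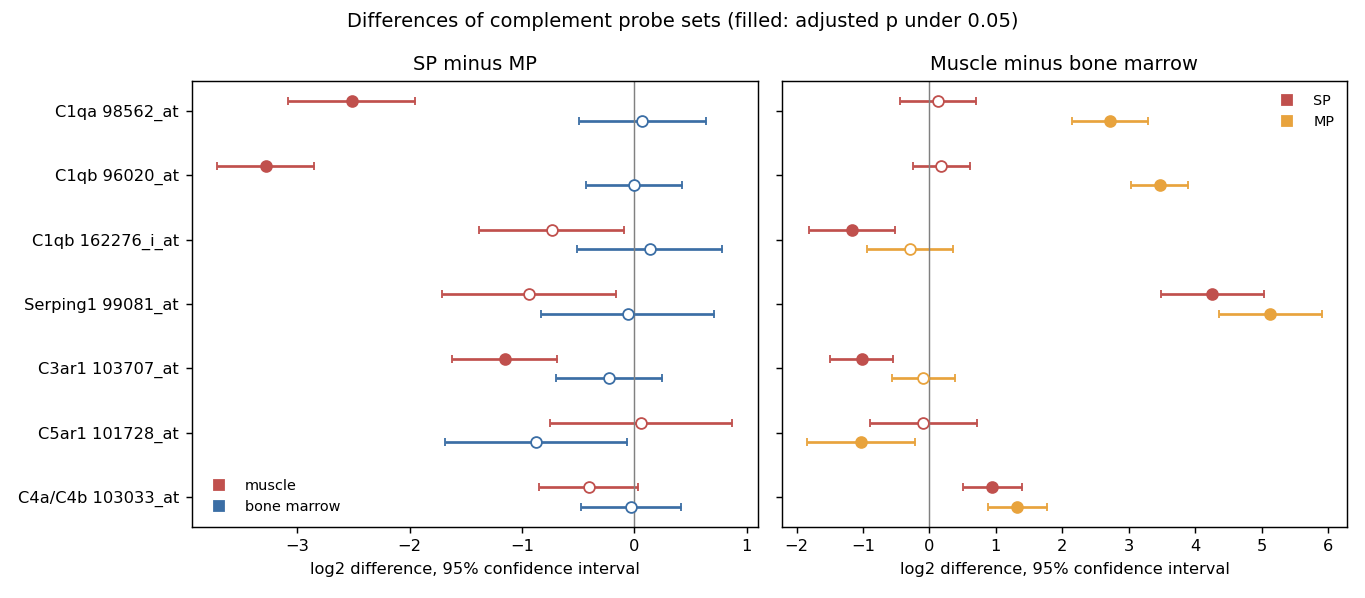
Log2 differences with 95% confidence intervals (horizontal axis) of the 6 complement probe sets and of C4a/C4b, SP minus MP on the left and muscle minus bone marrow on the right, filled where the adjusted p was under 0.05. C1qa, C1qb 96020_at and C3ar1 are filled for muscle SP minus MP, no point is filled for bone marrow SP minus MP, and Serping1 lies furthest to the right in both tissue comparisons.

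The change from MP to SP was compared between the tissues directly. Of the 6 probe sets 3 differed, each with the more negative SP against MP difference in muscle, where 18.5% of all probe sets were called, 9.85% in that direction and 8.69% in the other. The differences between the tissues' log2 changes were -3.28 ± 0.29 for C1qb 96020_at (adjusted p = 8.2e-08 by limma) and -2.59 ± 0.39 for C1qa (adjusted p = 5.4e-05 by limma), and both rest on marrow values at or near the floor. For C3ar1 it was -0.93 ± 0.32 (adjusted p = 0.0465 by limma), a call lost in 19 of 32 alternatives, over which the adjusted p ran from 0.00948 to 0.299.

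The third comparison set the side populations of the tissues against each other. Of the 6 probe sets, 1 was higher in muscle SP and 2 were lower, against 17.1% and 21.2% of all probe sets (38.3% in either direction). These 3 had no overlap between the groups, as had 23.4% of all probe sets. Serping1 was 19.1-fold higher in muscle SP (log2 4.25 ± 0.37, adjusted p = 3.0e-09 by limma), the means being 12.19 ± 0.77 and 7.94 ± 0.78 (SD, n = 5). C3ar1 was 2.03-fold lower in muscle SP than in bone marrow SP (log2 -1.02 ± 0.23, adjusted p = 9.2e-04 by limma), with no overlap. The C1qb probe set 162276_i_at was 2.24-fold lower (log2 -1.16 ± 0.31, adjusted p = 0.0045 by limma), whereas 96020_at was at the floor on 9 of these 10 arrays.

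C5ar1 was not called between the side populations, at log2 -0.09 ± 0.39, and the difference was -0.63 (adjusted p = 0.0369 by limma) without bone marrow SP array 5. C1qa gave 0.13 (95% interval -0.44 to 0.70), each group having 1 array that stood clear of the floor. C4a/C4b was 1.92-fold higher in muscle SP (log2 0.94 ± 0.21, adjusted p = 0.0011 by limma), with ranges of 8.60 to 9.48 and 7.94 to 8.67 that overlapped.

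The fourth comparison set the main populations against each other. Of the 6 probe sets, 3 were higher in muscle MP and 1 was lower, against 20.9% and 25.6% of all probe sets (46.5% in either direction). These 4 had no overlap between the groups, as had 39.7% of all probe sets. Serping1 was 35.0-fold higher in muscle MP (log2 5.13 ± 0.37, adjusted p = 7.9e-11 by limma). C1qb 96020_at was at least 11.0-fold higher, since all bone marrow MP arrays were at the floor (log2 3.46 ± 0.21, adjusted p = 3.0e-12 by limma). With the floor at the 40th percentile that log2 value was 2.18, and with the floor at the 10th it was 5.12. C1qa was 6.58-fold higher (log2 2.72 ± 0.27, adjusted p = 1.9e-08 by limma), and log2 1.57 with the floor at the 40th percentile.

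C5ar1 was the member called lower in muscle MP, by 2.04-fold (log2 -1.03 ± 0.39, adjusted p = 0.0341 by limma), with no overlap between the groups. This call was lost when any 1 of muscle MP arrays 3, 4 and 5 or bone marrow MP arrays 1, 2 and 5 was left out. It was lost in 8 of 23 alternatives, over which the adjusted p ran from 3.8e-04 to 0.0917 (limma). The pooled standard error includes bone marrow SP, with an SD of 1.24 against 0.44 on muscle MP and 0.30 on bone marrow MP arrays. C3ar1 differed by -0.09 ± 0.23 (95% interval -0.56 to 0.38) and was not called. C4a/C4b was 2.50-fold higher in muscle MP (log2 1.32 ± 0.21, adjusted p = 2.0e-05 by limma), with no overlap.

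The order of the 4 groups was shared by some probe sets and differed between others. Serping1, like C4a/C4b, ran from muscle MP and muscle SP, whose ranges overlapped, down to bone marrow MP and SP, which overlapped too, and for Serping1 the step between the tissues was 4.20 on the log2 scale. C1qa and C1qb 96020_at had muscle MP on top and the other 3 groups with overlapping ranges under it. On C1qb 162276_i_at the order was bone marrow SP, bone marrow MP, muscle MP and muscle SP, with overlap between each neighbouring pair. C3ar1 had bone marrow MP, muscle MP and bone marrow SP with overlapping ranges and muscle SP under them. C5ar1 had bone marrow MP on top, and each neighbouring pair of groups in its order overlapped.

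The fibroblast and matrix markers, whose cells are a known source of C1 inhibitor, summed to 4360 to 8826 over all bone marrow arrays against at least 102841 on every muscle array. The markers of endothelium, the other source named above, summed to 3982 to 13683 over all bone marrow arrays against at least 88696 on every muscle array. The part of either cell type in the Serping1 difference was not tested. Nearest to Serping1 in pattern were Sspn (0.53), the muscle membrane protein sarcospan, Lama2 (0.59), a laminin chain of the muscle basement membrane, and Igfbp7 (0.62), a secreted binding protein. Nearest to C3ar1 were Cbfb (0.28), Sumo3 (0.29) and Rars (0.29), and nearest to C5ar1 were Ciita (0.40), Kdm1a (0.43) and Klk1b1 (0.45). For C1qb 162276_i_at they were 4930453N24Rik (0.40), Plk1 (0.41) and Siah1b (0.42). The spread of the member itself was 2.50 for Serping1, 0.61 for C3ar1, 0.76 for C5ar1 and 0.67 for C1qb 162276_i_at. A small distance therefore means less for the last 3.

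Other complement genes were taken from a list of 51, of which 30 were on the array with a symbol of their own and 24 passed the filter, each counted by its brightest probe set. Those on the array that did not pass were Masp1, Mbl1, Mbl2, Cfi, Cpn1 and Cr2. In muscle SP against MP 2 of the 24 were higher and 3 lower, with 5.1% and 6.64% of all probe sets called in these directions and a median log2 difference of 0.04 against 0.03 over all probe sets. In bone marrow SP against MP 1 was higher and 9 were lower, with 15.4% and 14.8% of all probe sets so called and a median of -0.20 against 0.02.

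The 3 lower in muscle SP were C1qc, Fcna and Vtn. Fcna, the gene of ficolin A, a lectin-pathway sensor of macrophages, fell by 1.26 ± 0.40 on the log2 scale (adjusted p = 0.0427 by limma), with overlap. Vtn, the gene of vitronectin, which blocks the membrane attack complex, fell by 1.00 ± 0.22 (adjusted p = 0.0045 by limma) and was at the floor on all 10 marrow arrays. The 2 higher were Clu, the gene of clusterin, another inhibitor of the terminal complex (1.27 ± 0.23, adjusted p = 7.3e-04 by limma), and Itgax, a chain of complement receptor 4 (0.76 ± 0.23, adjusted p = 0.0365 by limma). Both Clu probe sets were called, with no overlap.

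In marrow the 9 lower in SP cells were Cfb and Cfp of the alternative pathway, Hc, which encodes C5, the regulators Cd46, Cd55 and Cr1l, and the receptors Itgam, Itgb2 and Cd93. Hc was at the floor on all 5 SP arrays and Cd46 on 4 of 5. Both were dim on MP arrays too, at 7.17 to 8.37 for Hc and 6.89 to 7.99 for Cd46. Cfb was called on its brighter probe set only (-0.63 ± 0.22, adjusted p = 0.0374 by limma), with overlap. Its other probe set went the other way and was not called (0.22 ± 0.31, adjusted p = 0.653 by limma). Cfp encodes properdin, the stabiliser of the alternative pathway convertase carried by myeloid cells, and it fell by 2.22 ± 0.28 (adjusted p = 2.5e-06 by limma). Itgb2, the common chain of complement receptors 3 and 4, fell by 2.35 ± 0.28 (adjusted p = 1.5e-06 by limma), and Itgam, its partner in receptor 3, was at least 4.85-fold lower, since all SP arrays were at the floor. Cd55, which encodes decay-accelerating factor, fell by 2.16 ± 0.40 (adjusted p = 2.3e-04 by limma), and Clu was the 1 higher (0.65 ± 0.23, adjusted p = 0.0360 by limma), with overlap. The other Clu probe set was not called in marrow (0.14 ± 0.19, adjusted p = 0.651 by limma). Of 16 macrophage markers 8 were lower and 0 higher in these SP cells, and of 14 granulocyte markers 6 were lower and 0 higher. Itgam is on both lists, counted among these 8 and among the 9 complement genes. Of all probe sets 14.8% were lower and 15.4% higher. The macrophage markers summed to 31624 to 96442 on these SP arrays and the granulocyte markers to 112609 to 290244, against 454530 to 537816 for granulocyte markers on MP arrays, and their part in these falls was not tested.

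Between the tissues, 10 of the 24 were higher and 3 lower in muscle SP than in bone marrow SP, and 11 were higher and 8 lower in muscle MP than in bone marrow MP. Of all probe sets 17.1% were higher and 21.2% lower between the SP groups, and 20.9% and 25.6% between the MP groups. Vtn, Cd59a, Clu, C2, C1ra, Cr1l, Cd93, Lrp1 and C9 were higher in muscle in both, each on its brightest probe set. C9 was at the floor on 4 of 5 arrays of each marrow group. Cd59a, a membrane shield against the terminal complex, was higher by 3.55 ± 0.38 (adjusted p = 6.6e-08 by limma) and 3.80 ± 0.38 (adjusted p = 1.4e-08 by limma) in SP and MP cells. C2, the protease that cleaves C3 in the classical pathway, was higher by 1.67 ± 0.27 (adjusted p = 3.2e-05 by limma) and 1.81 ± 0.27 (adjusted p = 8.4e-06 by limma). The other C2 probe set was at or near the floor on most arrays and was not called in either comparison (-0.11 and -0.02). C1ra, the gene of a C1q-bound protease, was read by a probe set whose suffix marks a gene family, so its value may include related sequences. The other C1ra probe set was called between the SP groups (1.62 ± 0.43, adjusted p = 0.0042 by limma), with overlap. Between the MP groups it was not called (0.39 ± 0.43, adjusted p = 0.488 by limma).

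Itgb2, Cfp and Itgax were lower in muscle in both populations. The log2 difference of Itgb2 was -3.69 ± 0.28 (adjusted p = 3.9e-10 by limma) in SP cells and -6.16 ± 0.28 (adjusted p = 3.7e-14 by limma) in MP cells. That of Cfp was -1.80 ± 0.28 (adjusted p = 1.5e-05 by limma) in SP cells and -3.84 ± 0.28 (adjusted p = 8.0e-11 by limma) in MP cells. Hepatocyte markers, the sign of the tissue that makes most plasma complement, summed to at most 678 on any array, and Fgb was at the floor on all 20.

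**Figure D4:**
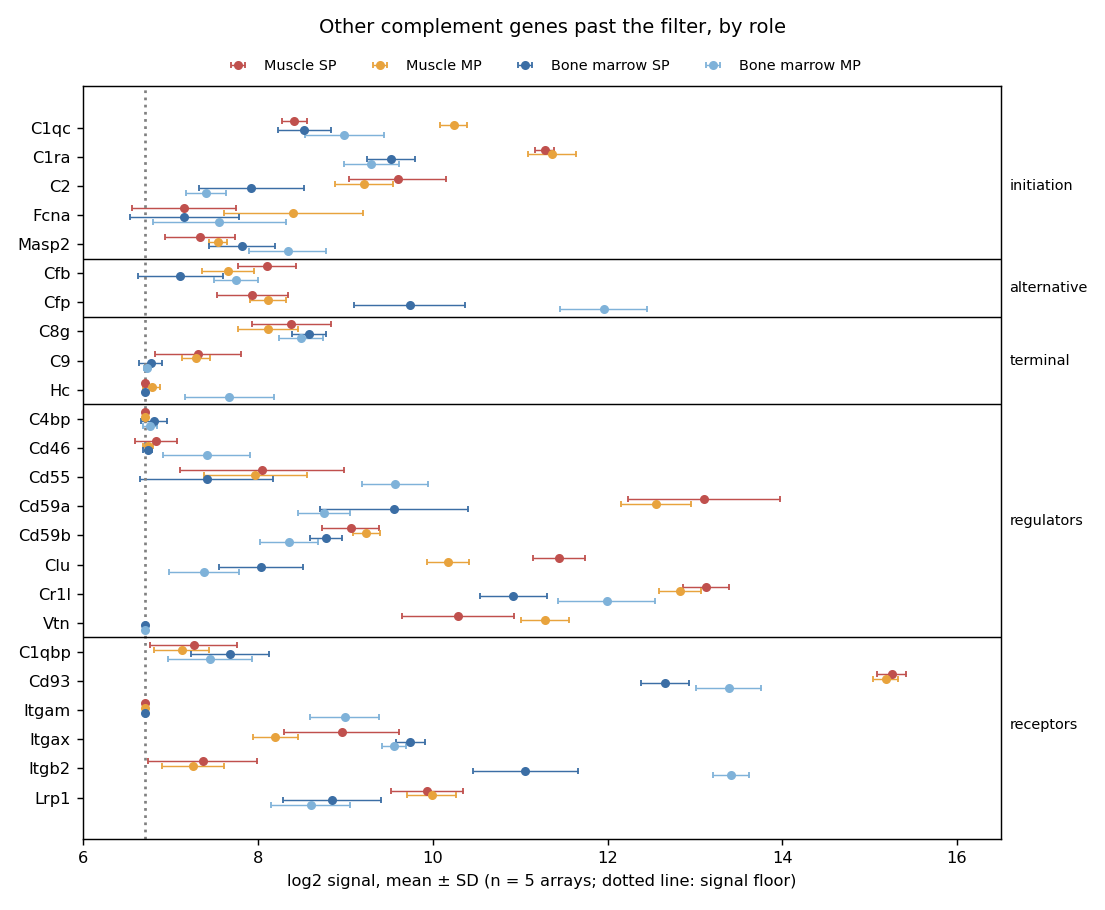
Mean log2 signal ± SD over 5 arrays (horizontal axis) of the 24 other complement genes past the filter (rows, by role) in the 4 groups, with the signal floor as a dotted line. C1qc is highest on muscle MP arrays, Vtn, Cd59a and Clu are far higher in muscle than in marrow, and Itgb2 and Cfp are highest on bone marrow MP arrays.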

How the data were processed

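RNA of sorted cells had been measured on 20 Affymetrix-type expression arrays, 5 per group. The deposited values are signal intensity on a linear scale, 1 value per probe set and array, from 0 upwards. How probes were summarised and corrected for background, and with which software, is not given in the sources used here. Groups come from the sample titles.

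Of 12488 probe sets, 66 controls were left out. Array medians, 318.8 to 613.05 signal units, differed by 0.94 on the log2 scale, so arrays were quantile normalized, floored at the 25th percentile (105) and converted to log2. All groups entered 1 limma fit (version 3.58.1, R 4.3.3), with two-sided p-values adjusted over the 10310 probe sets tested. The number of arrays limits the precision. Quantile normalization removes overall differences in RNA content, and the floor understates differences of dim genes. Of 12422 probe sets 10833 carried 1 symbol, 396 several and 1193 none. Likeness names the 3 nearest probe sets per member. The fit was tested on simulated data. Figures were drawn with matplotlib 3.10.9. The list of members, the other gene lists, tests and alternatives were chosen with earlier results of these data known. All listed members were named whatever their values.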

Additional observations from a re-analysis of the deposited data

Results flagged for a closer look

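In each group of 5 arrays the highest and lowest values were compared with the rest. Of 26 groups of arrays with any spread, 7 held an array that stood far from the other 4. For values with no floor chance marks about 1 in 20. That rate does not apply to the 3 groups whose other 4 arrays were all at the floor (C1qb 96020_at on muscle SP, C1qa on bone marrow SP and MP). In those groups any single array above the floor is marked. Nor does the rate strictly hold for C1qa on muscle SP, with 2 arrays at the floor. The same goes for C1qb 162276_i_at on muscle SP, where the marked array was itself at the floor. Muscle SP array 3 stood apart for C1qa (8.27, next 6.81) and for both C1qb probe sets, upward on 96020_at (7.61, the others at 6.71) and downward on 162276_i_at (6.71, next 8.09). C1qa stood apart on bone marrow SP array 3 (7.75) and on bone marrow MP array 5 (7.39), the other 4 arrays of each group being at the floor. C5ar1 stood apart on bone marrow SP array 5 (6.73, next 8.98). C4a/C4b stood apart on bone marrow SP array 1 (8.67, next 8.07).

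The SP against MP difference was more negative in muscle than in bone marrow by 3.28 on the log2 scale for C1qb 96020_at (-3.28), by 2.59 for C1qa (-2.59) and by 0.93 for C3ar1 (-0.93), each past the threshold in the test of the difference itself. For C1qb all 10 marrow arrays were at the floor, so the value repeats the muscle difference and the marrow difference was not measured. The C3ar1 call was lost in 19 of 32 alternatives.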

How the results depend on the processing

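Over 34 named values and their alternatives, 836 comparisons in all, 770 kept direction and side of the threshold, 27 lost the call, 7 gained it and 32 changed sign. Of 15 called values, 13 kept their call under every alternative and 0 changed sign. The exceptions were C5ar1 between the main populations (adjusted p = 0.0722 without further normalization and 0.068 without the filter, limma) and C3ar1 in the difference between the tissues. Serping1 gained a call in that difference without further normalization (-1.47, adjusted p = 0.033 by limma). For the values named here that changed with a setting, the cause was not tested.

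The count of complement probe sets called in bone marrow SP against MP was 1 in place of 0 with median scaling, and 0 to 1 when 1 array was left out. The values that changed sign were all uncalled. Without further normalization, bone marrow SP against MP gave 0.27 for C3ar1, 0.52 for Serping1 and 0.49 for C4a/C4b, and the main populations gave 0.078 for C3ar1. That setting moved the median of all probe sets in bone marrow SP against MP from 0.02 to 0.31, with 2894 called higher and 1112 lower in place of 1583 and 1530, and median scaling gave 1061 and 2166. In the same comparison median scaling gave 0.041 for Serping1 and 0.0097 for C4a/C4b, the floor at the 40th percentile gave 0.045 for Serping1, and array weights gave 0.16 for Serping1. Array weights gave -0.11 for C1qa between the side populations. With the GAPDH ratio as a covariate C5ar1 gave -0.031 in muscle SP against MP, and in marrow C1qa gave -0.025 and Serping1 0.35. Without the 3 arrays of highest GAPDH ratio C5ar1 gave -0.027 in muscle, and in marrow Serping1 gave 0.18 and C4a/C4b 0.044.

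Leaving out 1 array at a time, C5ar1 ranged from -0.085 to 0.22 in muscle SP against MP and from -0.63 to 0.12 between the side populations, where C1qa ranged from -0.17 to 0.34. In bone marrow SP against MP, Serping1 ranged from -0.34 to 0.25, C4a/C4b from -0.17 to 0.021 and C1qa from -0.14 to 0.21. Between the main populations C3ar1 ranged from -0.20 to 0.0085. With the replicate block 0 calls changed, and the counts were 3, 0, 3, 4 and 3. Of 20 pairs of same-numbered arrays 10 had deviations correlated over 0.1 (range -0.14 to 0.30), and 6 were best matched by their own number. Since not every pair was over 0.1, the numbers were not taken to pair the arrays, although 4 of 5 pairs were over 0.1 between the main populations. Over all probe sets in muscle SP against MP the block gave 631 higher and 765 lower in place of 526 and 685. Values near the floor limit the folds of C1qa and C1qb.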
